A study of Homo sapiens with 6 samples.

Results

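The FOS and JUN family of AP-1 transcription factors was followed here through 10 genes: FOS, FOSB, FOSL1 and FOSL2 of the FOS group, JUN, JUNB and JUND of the JUN group, and BATF, BATF3 and MAFF, smaller proteins with the same kind of DNA-binding domain. They were taken from a list of names, and each was read from the transcript cluster (the set of probes that the array assigns to one transcript) annotated with that symbol alone. All 10 were found, each with 1 such cluster, among 18417 genes in all. The cells were of the established human line AGS, derived from a carcinoma of the stomach. Both groups had grown for 48 h after seeding in 6-well plates. One group was kept for 24 h with 20 µM celecoxib, an inhibitor of the prostaglandin-producing enzyme cyclooxygenase-2, and the other was labelled as the control. Each group had 3 Affymetrix HuGene-1_0-st arrays. The drug came from a 10 mM stock in DMSO. No label says that control wells were given this solvent, so drug and solvent cannot be told apart. The arrays are labelled as biological replicates, but the extraction protocol mentions pooled samples, so the p-values measure the spread between these arrays, which may be technical.

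AP-1 is a pair of proteins joined by a leucine zipper. JUN proteins can pair with each other or with a FOS protein, whereas FOS proteins need a JUN partner, and the pair binds the DNA letters TGANTCA. Several of the genes are immediate early genes: growth factors, stress and phorbol esters switch them on within minutes through MAP kinases, and their RNA is short-lived, so a sample taken at 24 h reads the level that remains and not the first response. In epithelial tumours AP-1 is known for driving genes of growth, migration and matrix breakdown.

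None of the 10 transcripts passed an adjusted p of 0.05 with celecoxib. Values were lower in 8 of the 10, where 52.1% of all genes had a negative difference, and higher in FOS and BATF. The median difference was -0.111 on the log2 scale, against -0.007 over all genes. JUN had the largest difference, at -0.32 ± 0.12 (log2, SE, n = 3 per group, limma adjusted p = 0.374), a ratio of 1.25 between control and celecoxib. It was followed by FOSL2 at -0.23 ± 0.12 and JUND at -0.22 ± 0.09. Over all genes, 0.141% passed the adjusted threshold.

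The stretches just upstream of these genes are shown because they are the DNA through which the family's own members and the related CREB and ATF proteins are known to act on several of them. RefSeq sequence of build GRCh38.p14 was at hand for 8 of the 10 genes: FOS, FOSB, FOSL2, JUN, JUNB, JUND, BATF and MAFF. Each line gives the 90 bases before the annotated start of transcription, on the gene's own strand, and capitals mark the letters TGACGT, the core of a cAMP response element (CRE), on either strand, the full CRE TGACGTCA, or TGACATCA, the known AP-1-binding variant of the JUN promoter. The 6 windows that hold such letters are printed; those of JUNB, BATF and the other start of MAFF hold none of them and are not. The regions are chr14:75278738-75278827 (plus strand) for FOS, chr19:45467906-45467995 (plus) for FOSB, chr2:28392768-28392857 (plus) for FOSL2, chr1:58784048-58784137 (minus) for JUN, chr19:18281623-18281712 (minus) for JUND and chr22:38201904-38201993 (plus) for the first of the annotated starts of MAFF.
FOS: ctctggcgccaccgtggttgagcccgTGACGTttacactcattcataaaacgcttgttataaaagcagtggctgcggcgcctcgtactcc
FOSB: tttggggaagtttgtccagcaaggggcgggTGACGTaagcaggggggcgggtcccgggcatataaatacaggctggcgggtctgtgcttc
FOSL2: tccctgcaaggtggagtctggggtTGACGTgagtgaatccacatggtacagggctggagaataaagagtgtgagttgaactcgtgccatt
JUN: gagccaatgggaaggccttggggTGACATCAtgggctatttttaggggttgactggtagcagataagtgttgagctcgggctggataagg
JUND: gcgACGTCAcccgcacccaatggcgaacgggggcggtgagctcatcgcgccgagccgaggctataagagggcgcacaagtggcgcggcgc
MAFF: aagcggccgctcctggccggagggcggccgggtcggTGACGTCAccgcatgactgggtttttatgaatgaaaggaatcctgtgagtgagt

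The CRE core lay 64 to 59 bases before the start of FOS, 60 to 55 before FOSB and 66 to 61 before FOSL2. In JUN the AP-1 variant lay 67 to 60 bases before the start, and in MAFF the full CRE lay 54 to 47 before it. JUND had a core on the opposite strand 87 to 82 bases before its start, and a full CRE further out, at 200 to 193. Over the 250 bases upstream, TGACGT on either strand, which the full CRE contains, was found in 5 of the 8 genes and in 7.10% of 35116 promoters. The full CRE was found in 2 of 8 and in 1.65% of promoters, and TGACATCA in 1 of 8 and in 2.37%. The classic AP-1 letters TGANTCA and the CArG box, the binding element of serum response factor, were in 0 of the 8 genes (9 windows, as MAFF has 2 annotated starts), and in 6.57% and 1.16% of all promoters. The counts are per gene and the shares per promoter. GC content was 43.2% in the BATF window and 62.0% to 74.8% in the others, against a median of 58.0% over all promoters. TGACGT itself holds the letters CG, and the shares were not adjusted for GC content. A match is a description of letters in this window and not a bound site. An absence holds for these 250 bases only, as elements further upstream were not searched.

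**Figure D1:**
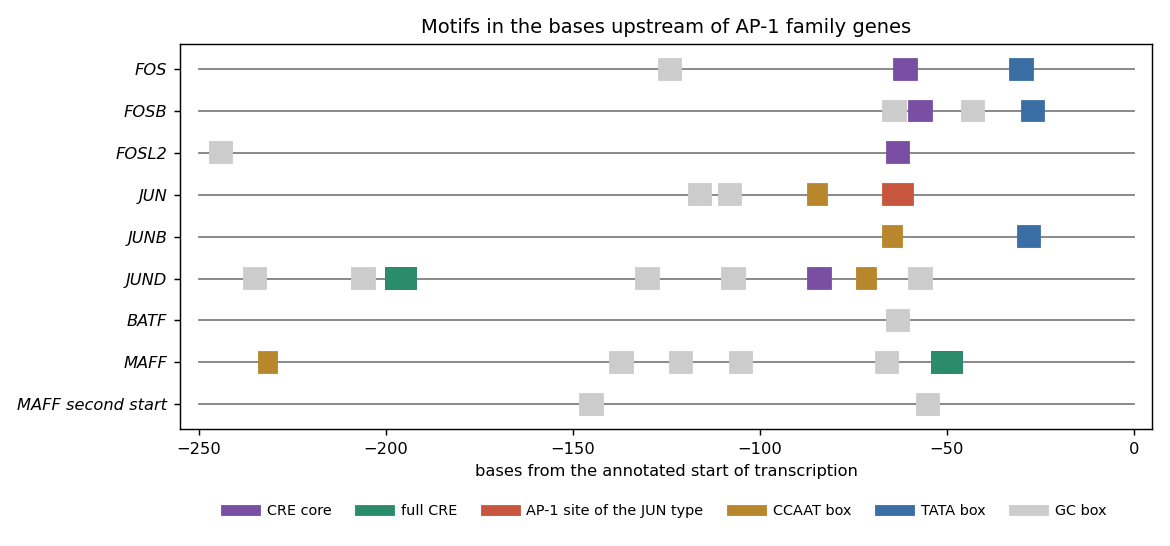
Positions of 6 motifs in the 250 bases before the annotated start of transcription, 1 line per gene, with both annotated starts of MAFF. The x axis gives bases from the start. CRE cores or the AP-1 variant stand between 67 and 47 bases upstream in FOS, FOSB, FOSL2, JUN and MAFF, and at 87 to 82 in JUND.

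JUN encodes c-Jun, which can pair with itself and is the founding partner of the family. Its log2 levels were 8.49, 8.56 and 8.36 in controls 1 to 3 and 7.89, 8.31 and 8.24 in celecoxib arrays 1 to 3. All 3 celecoxib values lay below all 3 control values, though the gap between control 3 and celecoxib 2 was narrow, and celecoxib 1 stood well under the other two. The 95% interval of the difference ran from -0.59 to -0.05. Without celecoxib 1 the difference was -0.196 (limma adjusted p = 0.526).

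JUND, the JUN protein best known for a steady level in resting cells, stood at 8.04, 8.12 and 7.92 in the controls and at 7.68, 7.93 and 7.81 with celecoxib. The groups overlapped, as celecoxib 2 was just above control 3, and celecoxib 1 was again the lowest array. The difference of -0.22 ± 0.09 (limma adjusted p = 0.413) had a 95% interval reaching from -0.43 up to -0.02. JUNB, which can dampen the action of c-Jun, stood at 8.43, 8.73 and 8.55 in the controls and at 8.32, 8.56 and 8.44 with celecoxib. Its groups overlapped widely, and the difference of -0.13 ± 0.10 was close to the control SD of 0.155. It was -0.0481 without control 2, -0.0703 without celecoxib 1 and -0.202 without control 1. The 3 JUN genes thus had negative differences, with control 2 the highest and celecoxib 1 the lowest array in each. At an unadjusted p under 0.05 in the limma fit there were 2 of the 10 family members, JUN and JUND, both lower, against 4.44% of all genes on the lower side and 6.87% on the higher side, where the family had 0.

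**Figure D2:**
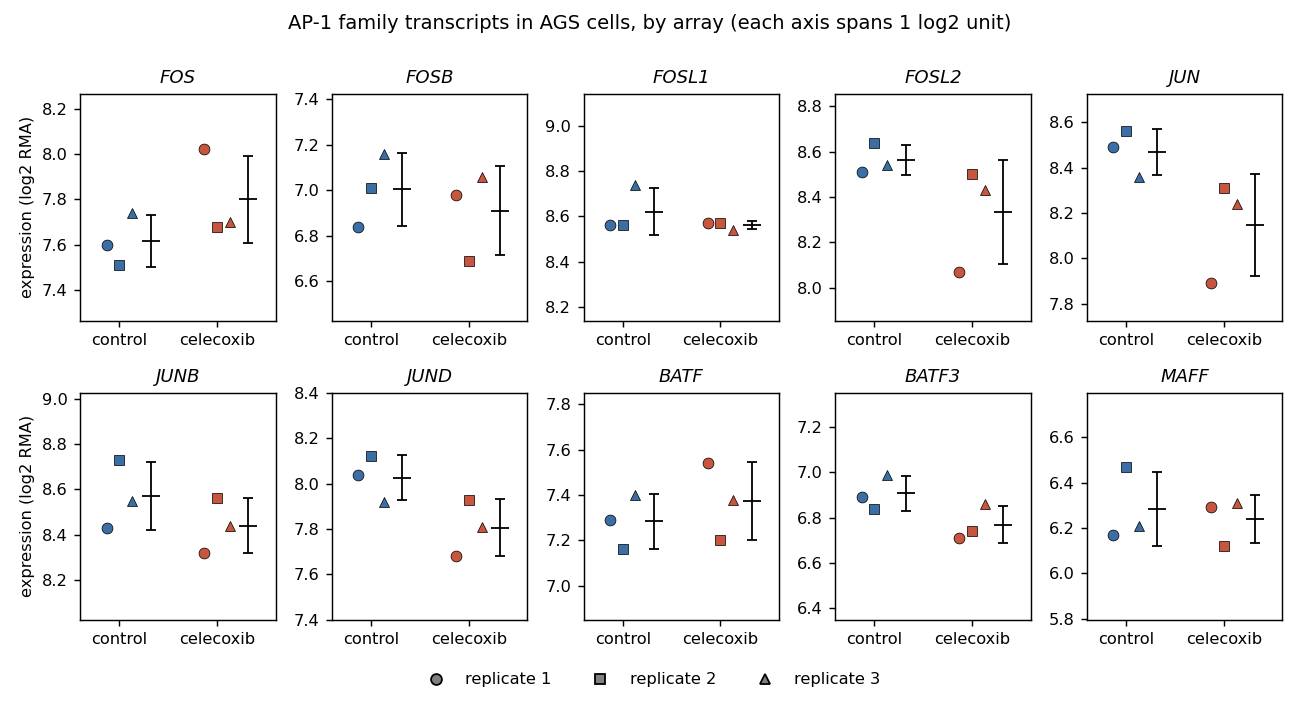
Log2 RMA expression of the 10 genes in each of the 3 control (blue) and 3 celecoxib (red) arrays, with marker shapes for replicate numbers and the group mean ± SD in black; every y axis spans 1 log2 unit. JUN and FOSL2 have all celecoxib arrays below all controls, and celecoxib replicate 1 is the lowest array in JUN, JUNB, JUND, FOSL2 and BATF3 and the highest in FOS and BATF.

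In the FOS group, FOSL2 (Fra-2), a FOS protein without the strong activating domain of c-Fos, stood at 8.51, 8.64 and 8.54 in the controls and at 8.07, 8.50 and 8.43 with celecoxib. The groups did not overlap, but celecoxib 2 was just under control 1, and celecoxib 1 lay apart from the other arrays. The difference of -0.23 ± 0.12 (limma adjusted p = 0.488) became -0.0972 without celecoxib 1. JUN and FOSL2 were the 2 of 10 members with separate groups, both lower. Over all genes 7.95% had separate groups on the lower side and 11.1% on the higher side, where the family had 0.

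FOS encodes c-Fos, a partner of JUN with a strong activating domain. Its levels were 7.60, 7.51 and 7.74 in the controls and 8.02, 7.68 and 7.70 with celecoxib. Only celecoxib 1 exceeded every control; celecoxib 2 and 3 lay between controls 1 and 3. The difference was 0.18 ± 0.11 (limma adjusted p = 0.546), its 95% interval spanned 0, from -0.07 to 0.43, and it was 0.0705 without celecoxib 1.

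FOSL1 (Fra-1), a FOS protein known for high levels in invasive carcinoma cells, gave the smallest spread under the drug. It stood at 8.56, 8.56 and 8.74 in the controls and at 8.57, 8.57 and 8.54 with celecoxib. Of the 6 arrays, 5 lay within a few hundredths of each other and control 3 stood above them. The difference was -0.06 ± 0.07, with an interval from -0.23 to 0.11, and it was -0.00197 without control 3. FOSB, whose short form is known from lasting stimulation, stood at 6.84, 7.01 and 7.16 in the controls and at 6.98, 6.69 and 7.06 with celecoxib. These values overlapped fully, with a difference of -0.09 ± 0.12 that turned to 0.0178 without celecoxib 2 and to 0.0425 with array weights, and lay between -0.173 and -0.0151 without control 1, control 3 or celecoxib 3.

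BATF and BATF3 pair with JUN proteins, compete with FOS for them, and are best known from T cells and dendritic cells. BATF stood at 7.29, 7.16 and 7.40 in the controls and at 7.54, 7.20 and 7.38 with celecoxib. The groups overlapped, with celecoxib 1 the highest array, and the difference of 0.09 ± 0.10 was 0.00758 without that array. BATF3 stood at 6.89, 6.84 and 6.99 in the controls and at 6.71, 6.74 and 6.86 with celecoxib. Here celecoxib 3 lay above control 2, and the difference was -0.14 ± 0.08 (limma adjusted p = 0.513).

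MAFF, a small MAF protein that binds DNA but has no activating domain of its own, was the 1 member whose mean lay below the median of all transcript clusters. Its levels of 6.17, 6.47 and 6.21 in the controls and 6.29, 6.12 and 6.31 with celecoxib overlapped fully. The difference of -0.04 ± 0.10 turned to 0.0499 without control 2, to 0.0164 without celecoxib 2 and to 0.0362 with array weights.

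Over the 10 genes the 95% intervals reached from -0.59, the lower bound for JUN, to 0.43, the upper bound for FOS. These intervals are not adjusted for the 18417 genes tested. With 3 arrays per group, neither a direction nor the absence of a change could be set for any of the 10.

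**Figure D3:**
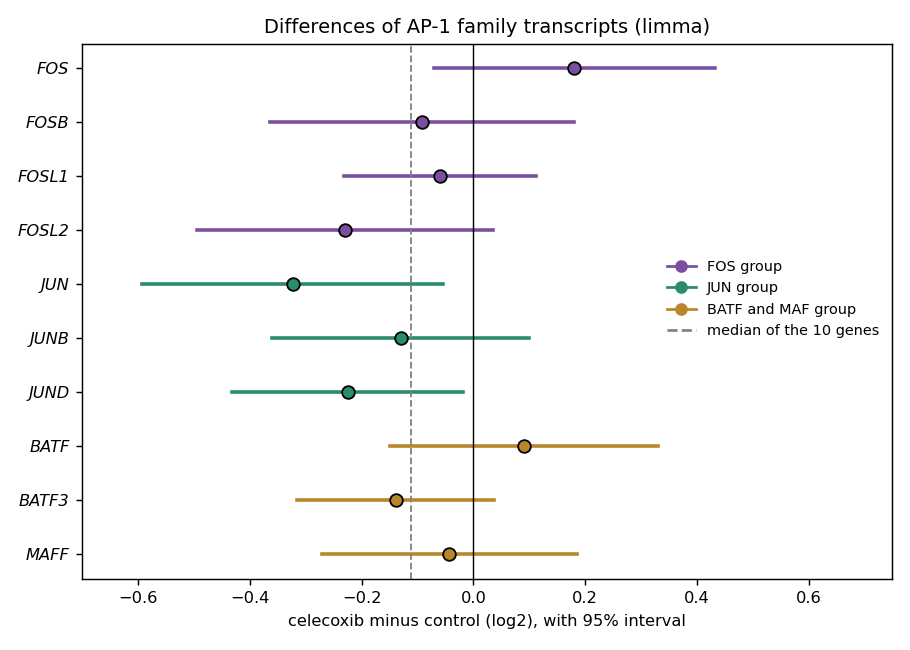
Difference of each gene, celecoxib minus control on the log2 scale (x axis), with its 95% interval from limma (n = 3 per group), coloured by group within the family; the dashed line is the median of the 10 genes, -0.111. The intervals of JUN and JUND lie below 0, and the other 8 cross it.

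The same array set the extreme value in 7 of the 10 genes. Celecoxib 1 was the lowest of the 6 arrays in JUN, JUNB, JUND, FOSL2 and BATF3, 5 members, and the highest in FOS and BATF. Over all genes it was the lowest array in 22.5% and the highest in 27.4%. Control 2 was the highest array in 5 members (JUN, JUNB, JUND, FOSL2 and MAFF) and the lowest in 2 (FOS and BATF), against 18.2% and 20.2% of all genes. The median level of 195 small nuclear and nucleolar RNA genes, short RNAs of splicing and ribosome making, was 7.11, 6.98 and 7.13 in controls 1 to 3 and 7.49, 7.21 and 7.17 in celecoxib 1 to 3. Celecoxib 1 was thus the highest and control 2 the lowest on this measure, and all 3 celecoxib arrays lay above all 3 controls. A fit with this level as a covariate cannot fully tell it apart from the treatment, and can take up part of a drug effect. With this level as a covariate the difference of JUN was -0.0566 and that of JUND -0.0743, FOSL2 turned to 0.0353 and JUNB to 0.037, and FOS and BATF turned to -0.0662 and -0.104. MAFF became 0.00299. FOSB, FOSL1 and BATF3 kept negative values.

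**Figure D4:**
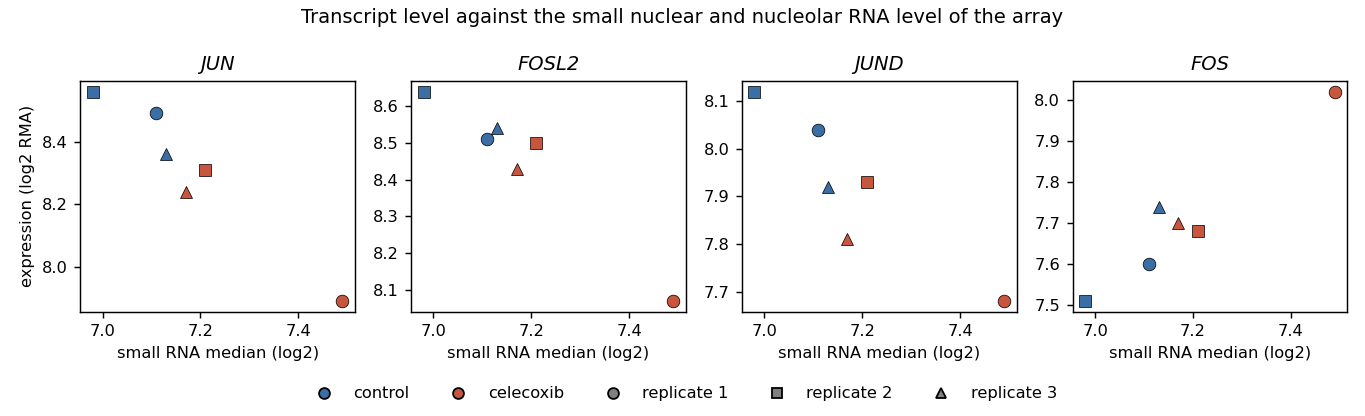
Log2 RMA level of JUN, FOSL2, JUND and FOS (y axes, each with its own scale) against the median log2 level of 195 small nuclear and nucleolar RNA genes of the same array (x axis), 1 point per array, blue for control and red for celecoxib. Celecoxib replicate 1, at 7.49 on the x axis, is the lowest array for JUN, FOSL2 and JUND and the highest for FOS, and control replicate 2, at 6.98, is at the opposite end.

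The genes whose levels followed JUN most closely over the 6 arrays, by Pearson's r, were NELFB (0.9998), ACTN4 (0.9993), GATA4 (0.9984), RHOBTB3 (0.9982) and MED15 (0.9974). Closest to FOS were BABAM2 (0.998), MDH1 (0.9978), RBX1 (0.9976), H4C1 (0.9975) and DNAJC9 (0.9964), and closest to FOSL1 were WNT5A (0.9916), L3MBTL2 (0.9889), HCLS1 (0.9884), MCC (0.9883) and DIPK2B (0.988). These are descriptions over 6 arrays in 2 groups. Of 17170 genes compared, 975 had an r above 0.9 with JUN, 1174 with FOS and 187 with FOSL1. Many genes thus followed JUN or FOS over the arrays, and fewer followed FOSL1. FOSL1 stood at 8.74 in control 3 and between 8.54 and 8.57 in the other arrays, so its r values rest largely on control 3. How many would reach such an r by chance was not tested, and the named genes are the highest of those compared.

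Other proteins with a basic leucine zipper can pair with the family. Of 20 listed, 18 were measured, and 1 passed the threshold, against 0.141% of all genes. This list and the related lists below were chosen with earlier results of these data known, so a call in them is not a finding about the list. The gene that passed was CREB5, which can pair with JUN. It fell from a mean of 8.59 to 7.71, a difference of -0.88 ± 0.07 (limma adjusted p = 0.0124). The 3 celecoxib arrays, at 7.66, 7.75 and 7.72, lay far below the controls at 8.55, 8.56 and 8.65. DDIT3 (CHOP), a stress factor, stood at 7.34 in the controls and 8.01 with celecoxib, a difference of 0.66 ± 0.12 (adjusted p = 0.11). ATF2, a classic partner of JUN at CRE-like elements, differed by 0.21 ± 0.08, and MAF, a large MAF protein, by -0.18 ± 0.08. With the small RNA level as a covariate DDIT3 stood at 0.436, ATF2 at 0.118 and MAF at -0.0917. ATF3 and JDP2, which can repress at AP-1 elements and are named for that role outside the rule for named genes, differed by -0.11 ± 0.11 and -0.02 ± 0.08. MAF, ATF3 and JDP2, with means of 5.51, 6.74 and 6.64, lay below the median of all transcript clusters, 6.785. The median of the 18 was -0.053.

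The kinases and factors upstream of FOS and JUN gave 0 of 25 measured genes past the threshold (31 were listed), and at an unadjusted p under 0.05 in limma 2 were higher and 1 lower, shares near the 6.87% and 4.44% of all genes. RPS6KA5 (MSK1), a kinase that phosphorylates CREB1 and histone H3 at immediate early genes, stood at 6.50, 6.60 and 6.36 in the controls and at 7.01, 7.22 and 7.07 with celecoxib. Its groups were well apart, with a difference of 0.62 ± 0.09 and an adjusted p just over the threshold (0.0582); it passed in 5 of 17 alternative settings. SRF, the serum response factor that drives FOS through the CArG box, differed by -0.40 ± 0.13 (adjusted p = 0.357), with celecoxib 1 lowest at 8.13, and by -0.262 without that array. MAP3K5 (ASK1), a stress kinase above JNK, differed by 0.30 ± 0.12 and MAP3K1, another, by -0.21 ± 0.09, or -0.116 without celecoxib 1. With the small RNA level as a covariate SRF stood at -0.087, MAP3K1 at -0.0186 and MAP3K5 at 0.53. The JNK genes MAPK8 and MAPK9, named for their role, differed by 0.13 ± 0.08 and 0.01 ± 0.08, and the ERK gene MAPK3 by -0.16 ± 0.12. The median of the 25 was -0.012.

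Of 10 listed genes that act on AP-1 proteins, 8 were measured and 0 passed, with 0 at an unadjusted p under 0.05 in limma. COPS5 (JAB1), a coactivator of JUN, differed by 0.26 ± 0.13, and COP1, a ubiquitin ligase for JUN, by 0.18 ± 0.09. GSK3B, a kinase that marks JUN for degradation, differed by -0.25 ± 0.21 and FBXW7, the ligase that reads such marks, by -0.06 ± 0.13. Leaving out single arrays moved COPS5 to 0.112 (without celecoxib 1), COP1 to 0.107 (without control 3) and 0.119 (without celecoxib 2), and GSK3B to values from -0.437 (without control 3) to -0.0614 (without celecoxib 1), among them -0.409 without celecoxib 2 and -0.106 without control 2. FBXW7 turned to 0.0667 without celecoxib 1 and to 0.00509 without control 2, stood at -0.165 without control 3 or celecoxib 2, and at -0.0316 without control 1. With the small RNA level as a covariate COP1 stood at 0.294, COPS5 turned to -0.0376, GSK3B to 0.212 and FBXW7 to 0.227.

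Immediate early genes outside the family numbered 29 measured of 31 listed, with 21 negative differences (72.4%, against 52.1% of all genes) and a median of -0.083. Of the 29, 1 passed the adjusted threshold, against 0.141% of all genes. CCN2, a matricellular protein gene driven by serum and TGF-beta, fell from 10.06, 10.20 and 9.73 to 8.84, 8.86 and 8.81, a difference of -1.16 ± 0.12 (limma adjusted p = 0.0209). CCN1, its relative, differed by -0.66 ± 0.12 (adjusted p = 0.103), TRIB1, a pseudokinase, by -0.40 ± 0.09 and DUSP1, a phosphatase that switches off MAP kinases, by -0.26 ± 0.07. At an unadjusted p under 0.05 there were 6 lower and 2 higher, where 4.44% and 6.87% of all genes were. EGR1, named for its role as the zinc finger gene most often read beside FOS, differed by -0.16 ± 0.18. The list median was -0.0257 with the small RNA level as a covariate. In that fit CCN2 stood at -1.07, CCN1 at -0.485, TRIB1 at -0.362 and DUSP1, further from 0 than before, at -0.35.

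Among genes known to be driven by AP-1, 25 of 30 listed were measured and 1 passed the threshold, against 0.141% of all genes. MMP1, the collagenase whose promoter is a textbook AP-1 target, rose from 10.67, 10.67 and 10.95 to 11.94, 11.76 and 11.75, a difference of 1.05 ± 0.10 (limma adjusted p = 0.0168) or 2.07-fold. The groups were far apart. JUN, FOS and FOSL1 did not pass, which does not show that they were unchanged, and a link of MMP1 with them was not tested. HMOX1, haem oxygenase, differed by 0.29 ± 0.10, TIMP1, an inhibitor of matrix proteases, by 0.20 ± 0.09 and HBEGF, a ligand of the EGF receptor, by -0.19 ± 0.08. Without celecoxib 1 HMOX1 stood at 0.177 and TIMP1 at 0.122, and with the small RNA level as a covariate at 0.0765 and 0.0184. Of other matrix and growth targets, named for their role, PLAU differed by -0.16 ± 0.09, MMP3 by 0.12 ± 0.09, CCND1 by -0.15 ± 0.07 and CD44 by 0.05 ± 0.06. PLAU and MMP3, with means of 6.33 and 5.47, lay below the median of all transcript clusters, 6.785. SPRR1A, also in the list, differed by -0.21 ± 0.11. Of the 25, 12 differences were positive and 13 negative, with a median of -0.014.

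The calls of CREB5, CCN2 and MMP1 were each made in 10 of 17 alternative settings. Their differences stayed between -0.898 and -0.842 for CREB5, between -1.30 and -1.06 for CCN2 and between 0.898 and 1.15 for MMP1.

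**Figure D5:**
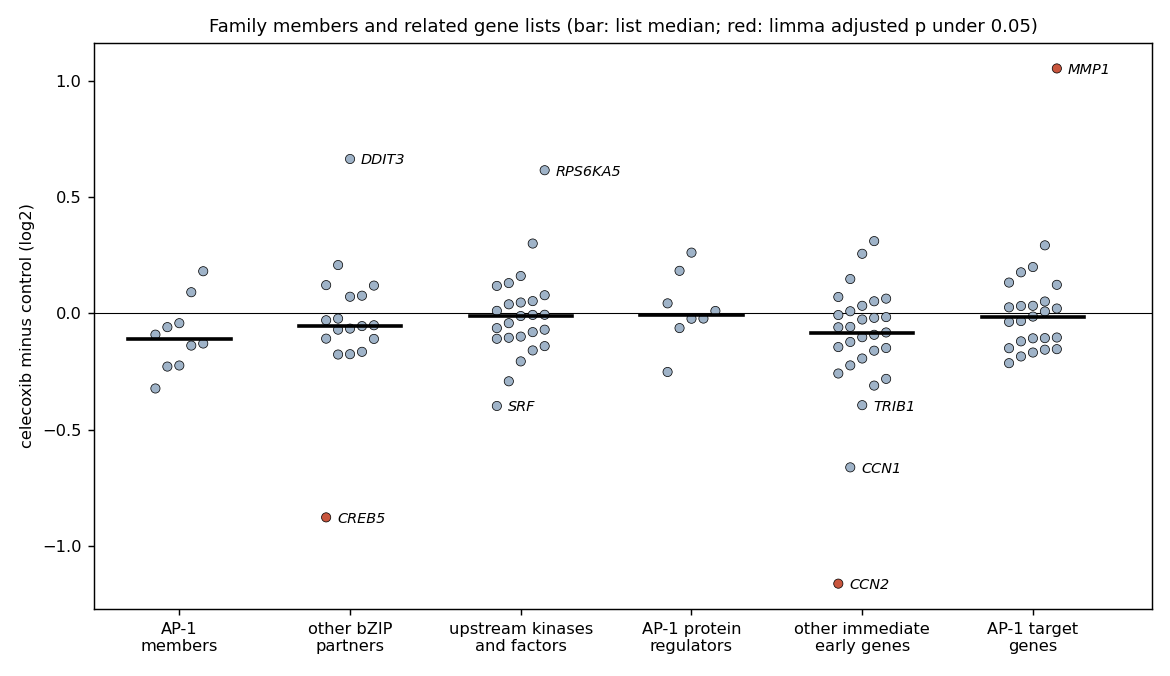
Differences, celecoxib minus control on the log2 scale (y axis), of the 10 AP-1 family genes and of 5 related lists (x axis), 1 point per gene, with the list median as a bar and genes past a limma adjusted p of 0.05 in red. The family lies between -0.32 and 0.18, while CREB5 (-0.88), CCN2 (-1.16) and MMP1 (1.05) stand apart from their lists.

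Across the whole series, array medians lay between 6.75 and 6.82 on the log2 scale. Epithelial markers KRT8, KRT18, KRT19, EPCAM, CDH1, CLDN4 and MUC13 had group means between 7.89 and 12.62, and 9 measured markers of blood, vessel, stromal and liver cells between 3.51 and 7.74. Of all genes, 26 passed the adjusted threshold, 14 higher and 12 lower.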

How the data were processed

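The authors deposited log2 expression values made with RMA in Affymetrix Expression Console 1.1, per the submitters' processing notes; RMA corrects background, normalizes by quantiles and summarises probes. Probe-level settings, slides and scan dates are absent from the labels, which left no batch and no background signal to test, and the precision is limited by having 6 arrays. Of 33297 clusters, 19460 had 1 gene symbol in the platform annotation, 1754 several and 12083 none; a gene's cluster with the highest mean stood for it (18417 genes).

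Groups came from the labels. The 3 celecoxib arrays were compared with the 3 controls by lmFit and eBayes of limma 3.58.1 (R 4.3.3), two-sided, with Benjamini-Hochberg adjustment over the 18417 genes and a threshold of 0.05; errors of differences are its standard errors. Members and lists were chosen with earlier results of these data known, and lists carry no set test. Named genes are the 10 members, the 4 smallest p of each related list and the 5 closest patterns to JUN, FOS and FOSL1; others are marked. Genes listed but not measured through a cluster of their own are not analysed here. The fit was tested on simulated data with noise drawn independently for each gene, so deviations shared by many genes of an array were not covered. It recovered 3.8% of changes of 0.25 log2 units and 73.2% of those of 0.5, and 5.59% of its calls were false. Figures used matplotlib 3.10.9.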

Additional observations from a re-analysis of the deposited data

How the results depend on the processing

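Under 17 alternatives, 0 of the 10 AP-1 members passed an adjusted p of 0.05 in limma in any; 2 had an unadjusted p under 0.05 in the comparison as reported and 0 to 3 in the alternatives. Their median difference of -0.111 was -0.13 among genes above the median signal (9 members), -0.0173 with array weights and -0.0702 with the small RNA level as a covariate, and lay between -0.16 and -0.0837 when each array was left out in turn. Over all genes the 26 calls became 76 above the median signal, 53 without the dimmest 20%, 44 after a further quantile normalization (18 higher and 26 lower, against 14 and 12), 69 with an intensity trend, with or without a robust prior, 177 with array weights, 0 with the replicate block and 1 with the covariate; leaving out each array gave 0 to 5. The related lists held 3 calls, 7 with array weights, 0 with the block, 0 with the covariate, and 0 to 3 without single arrays; the count was 3 without control 3 and 0 without any other array. Signs turned for FOSB (0.0425) and MAFF (0.0362) with array weights; for FOS (-0.0662), FOSL2 (0.0353), JUNB (0.037), BATF (-0.104), MAFF (0.00299), COPS5 (-0.0376), GSK3B (0.212) and FBXW7 (0.227) with the covariate; and, without single arrays, for MAFF (0.0499 and 0.0164, range -0.0993 to 0.0499), FBXW7 (0.00509 and 0.0667) and FOSB (0.0178, range -0.173 to 0.0178). The causes were not tested. As the small RNA level was higher in every celecoxib array than in every control, the covariate cannot be fully told apart from the treatment. Same-numbered arrays did not deviate together in every pair (r = -0.017, 0.494 and 0.012 across genes), and pairs of unlike number gave r from -0.493 to 0.408. The numbers were therefore not taken as a pairing, though the arrays numbered 2 had the highest r of all pairs. With the replicate block the difference of JUN was -0.323 (limma adjusted p = 0.331), and 2448 genes had an unadjusted p under 0.05.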

Other observations

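The 2 family members with positive differences, FOS and BATF, lie on chromosome 14 on the same strand, with their annotated starts 244 kb apart in GRCh38.p14, and the AP-1 repressor gene JDP2 lies between them, with annotated starts 149 to 150 kb from that of FOS. FOS differed by 0.18, BATF by 0.09 and JDP2 by -0.02 on the log2 scale, none past the threshold, and this trio was chosen after its values were seen. The 2 immediate early genes counted above as higher at an unadjusted p under 0.05 in limma were NR4A2 and KLF10. They lie outside the rule and were also chosen after their values were seen. NR4A2, an orphan nuclear receptor, stood at 6.34, 6.45 and 6.16 in the controls and at 6.63, 6.54 and 6.71 with celecoxib (0.31 ± 0.09, limma adjusted p = 0.318). Its mean of 6.47 lay below the median of all transcript clusters, 6.785. KLF10, a gene induced early by TGF-beta, differed by 0.26 ± 0.08 (adjusted p = 0.338). KLF6, of the same zinc finger family as KLF10, differed by -0.28 ± 0.09 (limma adjusted p = 0.322). It too lies outside the rule and was chosen after its values were seen. KLF2 and KLF4, of the same family and list, differed by 0.07 ± 0.07 and -0.15 ± 0.12.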
